A study of Mus musculus with 12 samples.

Results

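CC chemokines are small secreted proteins that attract leukocytes, and 10 of their genes were examined here in mouse hearts with and without myocardial infarction: Ccl2, Ccl3, Ccl4, Ccl6, Ccl7, Ccl8, Ccl9, Ccl12, Ccl17 and Ccl24. The members were given as a list of names, and every non-control array probe whose gene name is on that list was taken, which gave 11 probes for the 10 genes among 56605 probes for 36981 genes. Ccl4 had 2 probes and each other gene had 1. All 10 genes were among the 19761 genes tested. Total RNA from 12 heart samples was labelled with Cy3 and hybridised to Agilent single-colour arrays, 1 array per sample and 3 arrays per group. In the text, WT stands for wild-type hearts and WT+MI for wild-type hearts with an infarct. TG stands for hearts carrying a transgene of CCRR, which is a long non-coding RNA, and TG+MI for such hearts with an infarct. The series title names the inflammatory response after infarction, and Toll-like receptor signalling, as what CCRR is studied for. The strain C57/BL6 is stated for WT and WT+MI and for neither transgenic group, so strain and transgene cannot be told apart. The promoter of the transgene, the number of transgenic lines, the age and sex of the mice, the part of the heart sampled and the time from infarction to sampling were absent from the labels, and the level of CCRR itself was not analysed here. The labels do not state that each sample is a different animal, so p-values reflect only how far these samples spread, and that spread could be technical.

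Chemokines of this family bind G protein-coupled receptors on leukocytes and steer them from blood into tissue. In the injured heart they are known for drawing in monocytes, which become macrophages that clear dead muscle and shape the scar. Ccl2, Ccl7 and Ccl12 encode monocyte chemoattractant proteins that act through the receptor Ccr2. Ccl8 belongs to the same group by sequence, and its mouse product acts through Ccr8. Ccl3 and Ccl4 encode the macrophage inflammatory proteins 1 alpha and 1 beta, which attract monocytes, macrophages and T cells, the former through Ccr1 among its receptors. Ccl6 and Ccl9 are rodent chemokines of myeloid cells that act through Ccr1. Ccl17 is a Ccr4 ligand of dendritic cells and macrophages that attracts T cells, and Ccl24 encodes eotaxin 2, a Ccr3 ligand that attracts eosinophils.

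The 250 bases upstream of the transcription start were taken from RefSeq promoters of build GRCm38.p6, which matched 6 of the 10 members (Ccl3, Ccl6, Ccl8, Ccl9, Ccl12 and Ccl17). Of these, 4 are shown, 5′ to 3′ on the strand of the gene. Ccl12 and Ccl8 are neighbours of which the first rose after infarction and the second did not pass the test. Ccl9 and Ccl6 are neighbours whose infarction response was smaller in transgenic hearts. Capitals mark matches to the motifs searched.
Ccl12 upstream, chr11:82101595-82101844, plus strand: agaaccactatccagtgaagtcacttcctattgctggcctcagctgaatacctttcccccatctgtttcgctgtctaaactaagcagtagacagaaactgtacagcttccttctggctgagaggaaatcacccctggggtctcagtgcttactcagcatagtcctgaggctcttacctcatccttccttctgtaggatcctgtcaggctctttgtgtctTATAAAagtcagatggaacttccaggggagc
Ccl8 upstream, chr11:82114935-82115184, plus strand: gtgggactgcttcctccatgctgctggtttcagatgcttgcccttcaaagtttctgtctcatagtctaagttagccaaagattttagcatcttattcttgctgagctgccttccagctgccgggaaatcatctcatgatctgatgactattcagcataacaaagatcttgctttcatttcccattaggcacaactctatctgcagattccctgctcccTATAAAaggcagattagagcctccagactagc
Ccl9 upstream, chr11:83578637-83578886, minus strand: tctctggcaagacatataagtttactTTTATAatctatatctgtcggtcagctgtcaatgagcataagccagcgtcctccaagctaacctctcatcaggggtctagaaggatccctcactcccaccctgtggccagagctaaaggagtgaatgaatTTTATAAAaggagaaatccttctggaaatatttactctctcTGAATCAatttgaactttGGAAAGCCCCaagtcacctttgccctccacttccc
Ccl6 upstream, chr11:83593088-83593337, minus strand: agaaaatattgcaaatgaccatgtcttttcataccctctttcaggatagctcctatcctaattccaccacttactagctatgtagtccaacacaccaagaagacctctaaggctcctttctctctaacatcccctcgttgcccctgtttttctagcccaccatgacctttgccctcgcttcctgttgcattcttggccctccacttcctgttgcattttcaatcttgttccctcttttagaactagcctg

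The motifs, searched on both strands, were TATAAA (the TATA box), TGANTCA (AP-1), TTGCNNAA (C/EBP), GGG followed by any 2 bases, TT, any 1 base and CC (NF-kappaB), and TTC followed by any 4 bases and GAA (STAT6). The TATA box letters were found in 3 of the 6 promoters and in 12.4% of 32851 RefSeq promoters of the same length. They lay 31 to 26 bases before the start in Ccl12 and 32 to 27 bases before it in Ccl8, almost the same place. Ccl9 held them at 224 to 219 and at 94 to 89 on the other strand and at 92 to 87 on its own, the last pair overlapping each other. Ccl9 also held the NF-kappaB letters, at 35 to 26 on the other strand, and the AP-1 letters at 53 to 47, which overlap no other match. These letters were in 4.11% and 6.75% of all promoters. The STAT6 letters, in 5.85% of all promoters, were found in Ccl17, at 154 to 145. The C/EBP letters, in 9.56% of all promoters, were found in 0 of the 6, and none of the 5 motifs was found in Ccl6 or Ccl3. A match is a description of letters and not of a bound site.

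Values below are log2 of the background-subtracted array signal, scaled so that the 75th percentile of each array is 0. A level can be compared between arrays for a given gene but not between genes, since each probe has its own brightness. Between 47.0% and 55.2% of probes were well above background on an array. Ccl2, Ccl6, Ccl7, Ccl8, Ccl9, Ccl12 and Ccl24 were well above background on all 12 arrays. Ccl4 was so on 10 arrays and Ccl3 on 9, with every infarcted heart included, and Ccl17 was so on the 6 infarcted hearts only. The 11 probes are 60 bases long, and no spot was saturated. The Ccl4 probes share 46 bases, while no probes of different members matched at more than 26 of 60 bases by ungapped alignment. By their barcodes the arrays lay on 2 slides. Slide 1 held all WT and WT+MI arrays with TG 1 and TG 2, and slide 2 held TG 3 and all TG+MI arrays. Some arrays stood apart in markers of the atrium (Myl4, Myl7, Sln and Bmp10). Bmp10 was below background in every group but TG. The log2 of the summed signal of the 4 genes was 7.85 to 10 on the TG arrays, 8.29 on WT+MI 1 and 6.39 on TG+MI 2, against 0.74 to 2.76 on the other 7 arrays. Several differences are therefore also given without WT+MI 1 or TG+MI 2.

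**Figure D1:**
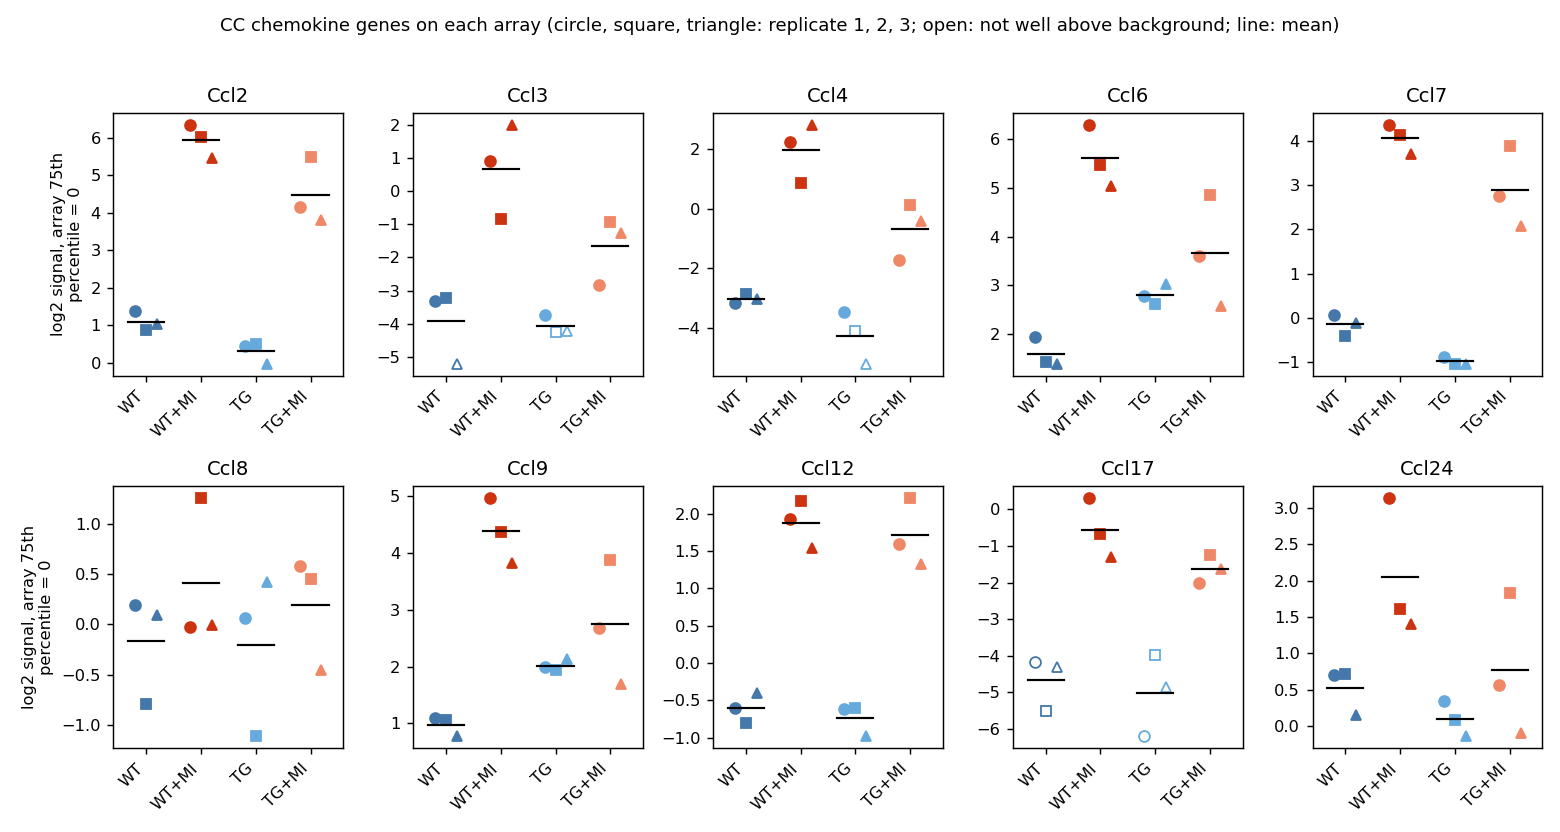
Log2 signal of the 10 CC chemokine genes (vertical axes, with the 75th percentile of each array at 0 and a different range in each panel) on the 12 arrays, by group along the horizontal axes. Circles, squares and triangles are replicates 1, 2 and 3, open symbols are spots not well above background, and lines are group means; in all panels but that of Ccl8 the 3 WT+MI arrays lie above the 3 WT arrays.

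After infarction of wild-type hearts, 9 of the 10 genes rose and none fell, with differences of 1.52 to 5 on the log2 scale. Among all 19761 tested genes, 18.6% rose and 29.3% fell in this comparison. The median difference of the 10 genes was 4.07, against -0.14 over all genes tested. The 9 genes that rose are also the 9 whose WT and WT+MI arrays did not overlap, which held for 25% of all genes in that direction. Of the 9, Ccl3 and Ccl17 met the filter on dim probes only through the infarcted groups, where they are high. Both groups lay on slide 1, and the same 9 genes passed there alone. In bulk tissue a change in the number of cells that make a transcript and a change in transcript per cell cannot be told apart.

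Of the monocyte chemoattractants, Ccl2 read 1.37, 0.89 and 1.04 on WT 1 to 3 and 6.33, 6 and 5.46 on WT+MI 1 to 3. Every infarcted heart was thus far above every uninfarcted one, and the difference of 4.83 ± 0.39 (SE, 3 against 3 arrays) is 28.5-fold (adjusted p = 4.34e-05). Ccl7, the gene next to Ccl2 on chromosome 11, read 0.06, -0.40 and -0.11 on the WT arrays and 4.35, 4.14 and 3.70 on the WT+MI arrays. It rose by 4.21 ± 0.37, or 18.5-fold (adjusted p = 6.11e-05), and the WT+MI arrays fell in the same order as for Ccl2, with WT+MI 1 highest and WT+MI 3 lowest. Ccl12 read -0.60, -0.80 and -0.40 on the WT arrays and 1.93, 2.17 and 1.53 on the WT+MI arrays. Its rise of 2.48 ± 0.24 (5.58-fold, adjusted p = 9.66e-05) was smaller than that of Ccl2 and Ccl7, with an SD of 0.20 in WT and 0.32 in WT+MI. Ccl8 read 0.19, -0.80 and 0.10 on the WT arrays and -0.03, 1.26 and 0.00 on the WT+MI arrays. The groups overlapped, WT+MI 2 alone stood above the WT arrays, and the difference of 0.58 ± 0.49 did not pass (adjusted p = 0.344). Its 95% interval, -0.49 to 1.66, excludes a rise as large as the 1.95 at the lower end of the interval of Ccl12.

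The genes of the macrophage inflammatory proteins had the widest spread among infarcted wild-type hearts. Ccl4 read -3.16, -2.86 and -3.04 on the WT arrays, close together, and 2.26, 0.86 and 2.82 on the WT+MI arrays. The difference was 5 ± 0.59, or 32-fold (adjusted p = 0.000244), the largest of the 10. Its other probe gave 4.90. Ccl3 read -3.31, -3.21 and -5.20 on the WT arrays, of which the last was not well above background, and 0.89, -0.85 and 1.99 on the WT+MI arrays. The rise was 4.58 ± 0.75, or 24-fold (adjusted p = 0.000963), with an SD of 1.43 in WT+MI. In both genes WT+MI 3 was highest and WT+MI 2 lowest, an order not seen in any other member. Size here depends on how faint spots are treated: with normexp background correction and quantile normalization the differences were 3.27 for Ccl4 and 2.30 for Ccl3, both still called.

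Ccl6 and Ccl9, which act through Ccr1, rose from levels that were well above background in every uninfarcted heart. Ccl6 read 1.94, 1.43 and 1.39 on the WT arrays and 6.30, 5.48 and 5.05 on the WT+MI arrays, a rise of 4.02 ± 0.49, or 16.3-fold (adjusted p = 0.000269). Ccl9, its neighbour, read 1.09, 1.06 and 0.77 on the WT arrays and 4.98, 4.37 and 3.83 on the WT+MI arrays, a rise of 3.42 ± 0.45, or 10.7-fold (adjusted p = 0.000391). The order of the WT+MI arrays was 1, 2, 3 from high to low in both genes, as in Ccl2 and Ccl7.

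Ccl17 and Ccl24, the ligands of Ccr4 and Ccr3, rose as well, the former from below background. Ccl17 read 0.32, -0.68 and -1.30 on the WT+MI arrays, while no WT array was well above background (measured mean -4.67 ± 0.73 SD). Set against the faintest signals that count as detected on the WT arrays, it was at least 9.49-fold higher after infarction (adjusted p = 0.000498). The measured difference of 4.12 became 1.47 with normexp correction, and was still called. Ccl24 read 0.70, 0.72 and 0.16 on the WT arrays and 3.14, 1.61 and 1.40 on the WT+MI arrays. Its rise of 1.52 ± 0.51 (2.88-fold, adjusted p = 0.0307) was the smallest that passed. Without WT+MI 1, the array with atrial transcripts, the difference was 0.98 (adjusted p = 0.116), and leaving out any WT array also ended the call, at adjusted p = 0.0561 to 0.0942. So did testing all genes with no filter on dim probes (adjusted p = 0.0667). The other 8 calls held with each array left out in turn, and without WT+MI 1 their differences were 2.46 to 4.86.

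**Figure D2:**
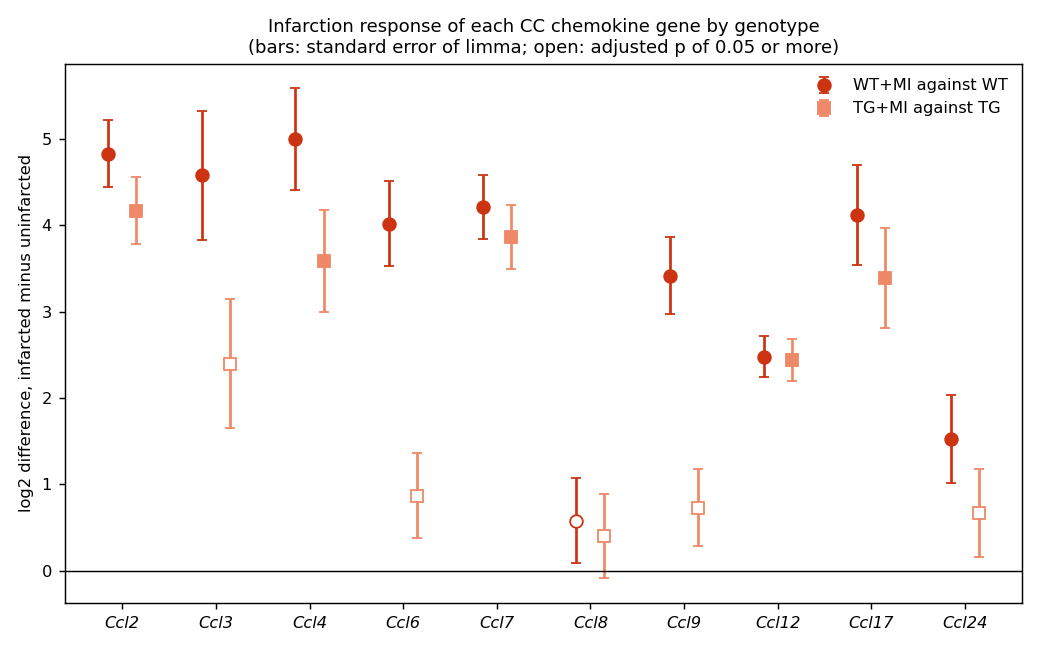
Log2 difference between infarcted and uninfarcted hearts (vertical axis) for each CC chemokine gene, in wild-type hearts (circles, WT+MI against WT) and in transgenic hearts (squares, TG+MI against TG), with bars for the standard error from limma over 3 arrays a group. Filled symbols passed an adjusted p below 0.05; Ccl6 fell from 4.02 in wild-type to 0.87 in transgenic hearts and Ccl9 from 3.42 to 0.73, while Ccl12 stood at 2.48 and 2.44, and for Ccl17 the uninfarcted groups were below background.

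Infarction of transgenic hearts raised 5 of the 10 genes, against 5.21% of all genes tested, and lowered none. These were Ccl2, Ccl4, Ccl7, Ccl12 and Ccl17, and the median difference of the 10 was 2.42, against 0.04 over all genes. The arrays of 6 genes, these and Ccl3, did not overlap and lay higher in TG+MI, as held for 17.2% of all genes. Of the 6, Ccl3 and Ccl17 met the filter on dim probes only through the infarcted groups. Ccl2 read 0.45, 0.50 and -0.02 on TG 1 to 3 and 4.15, 5.48 and 3.79 on TG+MI 1 to 3, a rise of 4.17 ± 0.39, or 18-fold (adjusted p = 0.000359). Ccl7 read -0.87, -1.03 and -1.03 on the TG arrays and 2.74, 3.87 and 2.07 on the TG+MI arrays, a rise of 3.87 ± 0.37, or 14.7-fold (adjusted p = 0.000405). In both genes TG+MI 2 was more than a log2 unit above the other arrays of its group. Ccl12 read -0.62, -0.60 and -0.98 on the TG arrays and 1.59, 2.21 and 1.32 on the TG+MI arrays, a rise of 2.44 ± 0.24, or 5.43-fold (adjusted p = 0.000451), nearly the size seen in wild-type hearts.

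Ccl4 read -3.46, -4.10 and -5.20 on the TG arrays, the last pair not well above background, and -1.72, 0.13 and -0.39 on the TG+MI arrays, a rise of 3.59 ± 0.59 (12.1-fold, adjusted p = 0.00651). Ccl17 was not well above background on any TG array (measured mean -5.02 ± 1.13 SD) and read -2.01, -1.24 and -1.64 on the TG+MI arrays, at least 3.82-fold higher (adjusted p = 0.00791). Ccl3 read -3.74, -4.24 and -4.22 on the TG arrays and -2.82, -0.93 and -1.25 on the TG+MI arrays. Its groups did not overlap, but the difference of 2.40 ± 0.75 did not pass (adjusted p = 0.0736). With normexp correction the values for Ccl4, Ccl3 and Ccl17 were 1.31, 0.72 and 0.82, and that for Ccl4 was no longer called (adjusted p = 0.0628).

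Ccl6, Ccl9, Ccl24 and Ccl8 did not pass in transgenic hearts. Ccl6 read 2.78, 2.62 and 3.02 on the TG arrays and 3.6, 4.86 and 2.57 on the TG+MI arrays, a difference of 0.87 ± 0.49 (adjusted p = 0.297). Ccl9 read 1.99, 1.93 and 2.13 on the TG arrays and 2.68, 3.88 and 1.69 on the TG+MI arrays, a difference of 0.73 ± 0.45 (adjusted p = 0.340). In both genes TG+MI 3 lay below all TG arrays and TG+MI 2 far above them, so the groups overlapped. Without TG+MI 2 the differences were 0.28 for Ccl6 and 0.17 for Ccl9. Ccl24 read 0.34, 0.09 and -0.14 on the TG arrays and 0.57, 1.83 and -0.09 on the TG+MI arrays (difference 0.67 ± 0.51, adjusted p = 0.443, and 0.14 without TG+MI 2). Ccl8 read 0.07, -1.12 and 0.43 on the TG arrays and 0.58, 0.46 and -0.45 on the TG+MI arrays (difference 0.40 ± 0.49, adjusted p = 0.645). With slide as a block, where TG 3 alone stands for the uninfarcted group, Ccl2 (4.50), Ccl4 (4.54), Ccl7 (3.93) and Ccl12 (2.69) were called and Ccl17 was not (3.24, adjusted p = 0.154). On slide 2 alone none of the 10 was called, and 0 of all genes passed there. At an unadjusted p below 0.05 there were 6 of the 10, against 8.57% of all genes.

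Before infarction, none of the 10 genes passed between transgenic and wild-type hearts, in a comparison that called 2.62% of all genes. At an unadjusted p below 0.05 there were 3 of the 10 (Ccl6, Ccl9 and Ccl7), against 17.9% of all genes. The TG and WT arrays of 5 genes did not overlap, as was the case for 33.5% of all genes. Ccl6 was higher on every TG array than on any WT array, by 1.22 ± 0.49 (95% interval 0.14 to 2.31, adjusted p = 0.228), and so was Ccl9, by 1.05 ± 0.45 (0.04 to 2.05, adjusted p = 0.261). The other 3 lay lower on every TG array: Ccl2 at -0.79 ± 0.39 (adjusted p = 0.315), Ccl7 at -0.83 ± 0.37 (adjusted p = 0.265) and Ccl4 at -1.24 ± 0.59 (adjusted p = 0.307). For Ccl4 only TG 1 of the TG arrays was well above background, the other probe gave -0.88, and normexp correction gave -0.17. For Ccl3, Ccl8, Ccl12, Ccl17 and Ccl24 the groups overlapped, with differences from -0.43 to -0.04. On slide 1 alone the differences of TG 1 and TG 2 from WT were 1.12 for Ccl6 (adjusted p = 0.143), 0.99 for Ccl9 (adjusted p = 0.133) and -0.81 for Ccl7 (adjusted p = 0.106). When only the WT and TG arrays were fitted, these 3 passed, Ccl6 at adjusted p = 0.0238, Ccl9 at 0.0133 and Ccl7 at 0.0307, in a fit that called 4.57% of all genes. All 3 TG arrays stood apart in tissue markers, with atrial sums of 7.85 to 10 against 1.16 to 1.81 in WT and adipocyte sums of 2.76 to 6.93 against -0.74 to 1.75. Fibroblast sums were 6.80 to 7.47 in TG against 5.85 to 6.09 in WT, and all 6 fibroblast markers were above 0 in TG against WT, of which Col1a2 passed (1.13 ± 0.25, adjusted p = 0.0443). The part of these tissues in the TG values was not tested.

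After infarction, transgenic hearts had lower values than wild-type hearts for all 10 genes, and 4 passed the test. Of all genes tested, 4.38% passed as lower and 7.79% as higher. The arrays of 3 genes (Ccl3, Ccl4 and Ccl6) did not overlap and lay lower in TG+MI, as held for 11.2% of all genes. The median difference was -1.37, against 0.09 over all genes tested. Ccl4 was lower by the most, at -2.64 ± 0.59, or 6.25-fold (adjusted p = 0.0294). The highest TG+MI array, at 0.13, was below the lowest WT+MI array, at 0.86. Ccl6 differed by -1.93 ± 0.49, or 3.82-fold (adjusted p = 0.0366), again without overlap between 4.86 and 5.05. Ccl9 differed by -1.64 ± 0.45, or 3.12-fold (adjusted p = 0.0443), and Ccl2 by -1.46 ± 0.39, or 2.75-fold (adjusted p = 0.0400). In the last pair TG+MI 2 reached just into the wild-type range, at 3.88 against a lowest WT+MI value of 3.83 for Ccl9 and at 5.48 against 5.46 for Ccl2.

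Ccl3 differed by -2.34 ± 0.75, or 5.07-fold, with no overlap of the groups, but did not pass (adjusted p = 0.0628), nor did Ccl7 at -1.17 ± 0.37 (adjusted p = 0.0591), Ccl24 at -1.28 ± 0.51 (adjusted p = 0.110) and Ccl17 at -1.08 ± 0.58 (adjusted p = 0.218). Ccl12 differed by -0.17 ± 0.24 (95% interval -0.70 to 0.36) and Ccl8 by -0.22 ± 0.49 (-1.29 to 0.86). No slide held both groups. With slide as a fixed block, which rests on the TG arrays, none of the 10 was called and 1 had an unadjusted p below 0.05, against 7.43% of all genes, with Ccl4 at -1.22, Ccl6 at -2.25, Ccl9 at -1.81 and Ccl2 at -0.96 (adjusted p = 0.666 to 0.748), and as a random block 6 were called. With normexp correction Ccl3 passed as well (-1.57, adjusted p = 0.0350). The count was 0 without WT+MI 1, TG+MI 1 or TG+MI 3, 1 without any WT array, TG 2 or TG 3, 2 without WT+MI 2 and 6 without TG+MI 2. Without WT+MI 1 the differences were -2.51 for Ccl4, -1.59 for Ccl6, -1.35 for Ccl9 and -1.26 for Ccl2, and without TG+MI 2 they were -3.04, -2.52, -2.21 and -1.96. Without WT+MI 1 Ccl24 was at -0.73 and Ccl17 at -0.64, neither called. All 4 calls were also lost with no filter on dim probes (adjusted p = 0.0613) and when only the WT+MI and TG+MI arrays were fitted (adjusted p = 0.152 to 0.167). Over all genes, 0 passed in this comparison with slide as a fixed block and 0 with only those groups fitted. The calls of other genes in this comparison, given below, have the same limit.

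The difference between the infarction responses, that in transgenic less that in wild-type hearts, was below 0 for all 10 genes and passed for Ccl6 and Ccl9. Of all genes, 3.05% passed in this direction and 8.9% in either. The median was -0.79, against 0.14 over all genes. For Ccl6 the response was smaller by 3.16 ± 0.69 log2 units (-3.16, adjusted p = 0.0362), and for Ccl9 by 2.69 ± 0.64 (-2.69, adjusted p = 0.0394). The higher values of these genes in TG, which did not pass on their own and come from the arrays with atrial, adipocyte and fibroblast signal, enter this difference. Their 4 group means were ordered WT, TG, TG+MI and WT+MI from low to high, with the TG and TG+MI arrays overlapping. All other members were instead ordered TG, WT, TG+MI and WT+MI. For Ccl3, Ccl8, Ccl12, Ccl17 and Ccl24 the TG and WT arrays overlapped, and for Ccl17 both groups were below background. The interaction of Ccl2 was -0.67 ± 0.55 (adjusted p = 0.419), that of Ccl7 -0.34 ± 0.52 (adjusted p = 0.682) and that of Ccl4 -1.41 ± 0.84 (adjusted p = 0.266). With normexp correction Ccl4 passed (-1.96, adjusted p = 0.0481). Ccl3 was at -2.18 ± 1.06 (adjusted p = 0.182), with a 95% interval of -4.53 to 0.17. Ccl12 gave -0.04 ± 0.34, with an interval of -0.79 to 0.71, and Ccl8 -0.18 ± 0.69, from -1.70 to 1.34. Whether the interaction of Ccl6 or Ccl9 differs from that of another member was not tested. With slide as a fixed block the sizes stayed (-3.37 for Ccl6 and -2.80 for Ccl9) and the calls did not (adjusted p = 0.197 and 0.221). Both calls were also lost without any single WT array, WT+MI 1, WT+MI 2, TG 1, TG 2 or TG+MI 1, and that of Ccl9 without TG 3, at adjusted p = 0.0519 to 0.0889, with values from -3.33 to -2.81 for Ccl6 and from -2.75 to -2.39 for Ccl9. Without TG+MI 2 both were called, at -3.75 for Ccl6 and -3.25 for Ccl9.

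**Figure D3:**
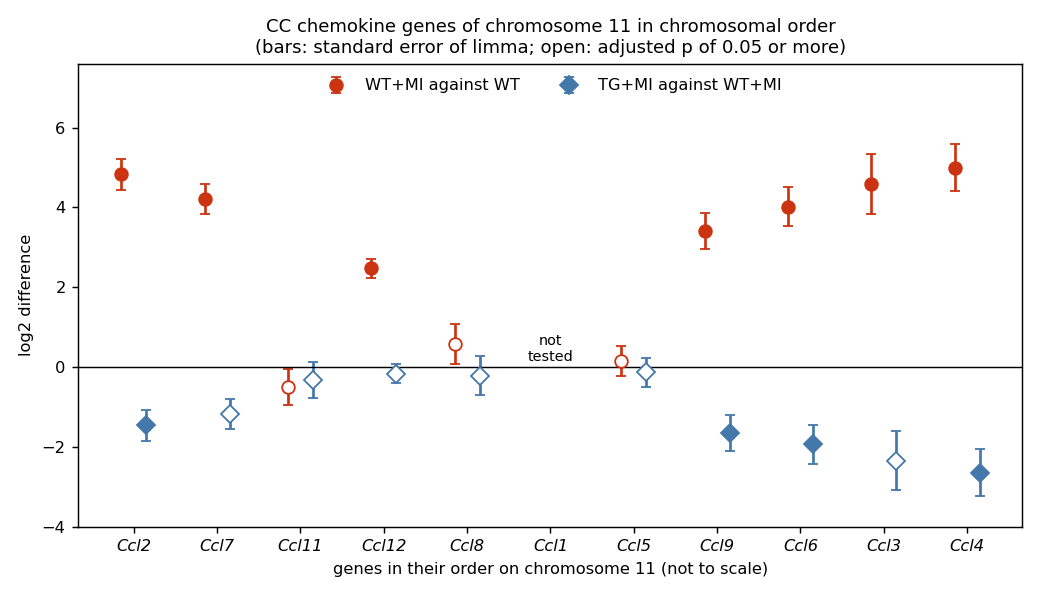
Log2 differences (vertical axis) of the CC chemokine genes of chromosome 11 in chromosomal order (horizontal axis, not to scale), for infarction in wild-type hearts (circles, WT+MI against WT) and for genotype after infarction (diamonds, TG+MI against WT+MI), with bars for the standard error from limma over 3 arrays a group and filled symbols for an adjusted p below 0.05. Large rises stand at both ends of the order, while Ccl11, Ccl8 and Ccl5 did not pass in either comparison and Ccl1 was below background.

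Of the 10 genes, 8 lie on chromosome 11, in 2 stretches. By the mm9 positions of their probes, the first runs from Ccl2 (chr11:81850650-81850709) through Ccl7 (chr11:81860656-81860715), Ccl11 and Ccl12 (chr11:81916710-81916769) to Ccl8 (chr11:81930108-81930167) and Ccl1. Within it Ccl2, Ccl7 and Ccl12 rose in wild-type hearts, while Ccl11, which encodes eotaxin, lies between Ccl7 and Ccl12 and differed by -0.50 ± 0.45 (adjusted p = 0.385). The second stretch runs from Ccl5 through Ccl9 (chr11:83388223-83388282), Ccl6 (chr11:83401997-83402056) and Ccl3 (chr11:83461358-83461417) to Ccl4 (chr11:83478052-83478111 for the main probe). Its last 4 genes rose together, by 3.42 to 5, and 3 of them (Ccl9, Ccl6 and Ccl4) passed as lower in TG+MI than in WT+MI hearts. Ccl5, at its near end, differed by 0.16 ± 0.37 after infarction of wild-type hearts (adjusted p = 0.740). The other members are Ccl17 on chromosome 8 (chr8:97335770-97335829) and Ccl24 on chromosome 5 (chr5:136046485-136046544).

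Within TG+MI most members varied together from array to array, and in WT+MI fewer did. TG+MI 2 lay above its group mean for 10 of 10 genes and was the highest of its group for 9, with a median deviation of 0.89, whereas over all tested genes its median deviation was -0.03. TG+MI 3 lay below the mean for 8, with a median deviation of -0.67. WT+MI 1 lay above its group mean for 9 of 10 (median deviation 0.35) and was the highest for Ccl2, Ccl6, Ccl7, Ccl9, Ccl17 and Ccl24. WT+MI 3 was instead the highest for Ccl3 and Ccl4, and WT+MI 2 for Ccl8 and Ccl12. Such a lean was not limited to infarcted hearts: WT 1 lay above its group mean for 8 of 10 (median deviation 0.24). Over all tested genes the median deviation was 0.03 on TG+MI 3, -0.02 on WT+MI 1 and -0.01 on WT 1. The share of all genes above the group mean on each array was not counted. The summed signal of the 10 genes was 3.38 to 3.73 in WT, 6.93 to 7.86 in WT+MI, 3.83 to 4.07 in TG and 5.04 to 6.84 in TG+MI, as log2. In the TG+MI hearts the sums were 5.63, 6.84 and 5.04, and the array with the highest sum in each infarcted group was the array with atrial markers. The part of that difference between samples in the values above was not tested.

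Markers of cells that make or follow these chemokines moved in part with them and in part did not. Of all genes tested, 18.6% rose and 29.3% fell in WT+MI against WT. In TG+MI against WT+MI 4.38% fell and 7.79% rose, and none passed with slide as a fixed block. Of 10 neutrophil markers, 6 rose and 2 fell (Camp and Ltf) in WT+MI against WT, and 5 fell and none rose in TG+MI against WT+MI, among them Cxcr2, a neutrophil chemokine receptor (-3.01 ± 0.44, adjusted p = 0.0239). Before infarction, 3 of the 10 neutrophil markers already passed as lower in TG than in WT and none as higher, where 2.62% of all genes passed. The summed signal of the neutrophil markers was 7.13 to 7.30 in WT, 8.26 to 8.98 in WT+MI, 6.86 to 6.99 in TG and 7.21 to 7.36 in TG+MI. Cxcr2 was below background on all WT and all TG arrays, Mmp9 on all WT arrays, Retnlg on all TG arrays and Ltf in every group but WT. Of 8 monocyte markers counted, 6 rose and none fell in WT+MI against WT, and 2 fell (F10 and Fn1) and none rose in TG+MI against WT+MI. Their sums were 7.12 to 7.35 in WT, 7.55 to 8.35 in WT+MI, 7.36 to 7.41 in TG and 7.57 to 7.98 in TG+MI, and F10 was below background on all WT and TG arrays and Chil3 on all TG arrays. Fn1 and Vcan of this list are also made by fibroblasts. Ly6c2 and Ms4a4c did not rise: Ly6c2 had means of 6.22 in WT, 6.14 in WT+MI and 6.85 in TG+MI, and Ms4a4c of 6.09 in WT and 5.93 in WT+MI. On TG+MI 1 to 3 the monocyte sums were 7.57, 7.73 and 7.98, while the sums of the 10 chemokine genes were 5.63, 6.84 and 5.04. The monocyte sums are carried by the bright probes of Ly6c2 (6.53 to 7.39 in TG+MI) and Ms4a4c (5.97 to 6.13). The next brightest, Fn1, reached 4.85, so these sums say little about the other monocyte markers. The part of these cells in the chemokine differences was not tested.

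Of 14 resident macrophage markers, 2 rose (F13a1 and Lyve1) and 1 fell (Folr2) in WT+MI against WT, and 1 fell (F13a1) in TG+MI against WT+MI. For these and the lists below, 18.6% of all genes rose and 29.3% fell in the first comparison, and 4.38% fell in the second. Before infarction all 14 were above 0 in TG against WT and 2 passed (C1qb and Lyve1), where 2.62% of all genes passed. The marker sums were 6.31 to 6.54 in TG against 5.67 to 6.04 in WT, alongside the higher values of Ccl6 and Ccl9. The sums were 5.98 to 6.38 in WT+MI and 5.41 to 6.05 in TG+MI, and no marker of this list was below background on all arrays of a group. The part of these cells in the Ccl6 and Ccl9 values was not tested. Of 6 tested dendritic cell markers, 3 rose (Itgax, Flt3 and Cd209a) and 1 fell (Zbtb46) in WT+MI against WT, and 1 fell (Flt3) in TG+MI against WT+MI. Their sums were 4.26 to 4.49 in WT, 3.73 to 5.10 in WT+MI, 3.97 to 4.17 in TG and 3.56 to 4.14 in TG+MI, with Clec9a below background everywhere, Xcr1 in every group but WT and Cd209a in WT. Eosinophil and mast cell markers, the targets of Ccl24 among them, had sums of 0.50 to 0.85 in WT, -0.64 to 0.85 in WT+MI, 0.41 to 1.23 in TG and -0.09 to 0.34 in TG+MI. The defining eosinophil granule genes Epx and Prg2 were below background on all 12 arrays. Siglecf, which alveolar macrophages and some neutrophils also make, was below background in WT and at least 3.17-fold higher in WT+MI (adjusted p = 0.00189). Cpa3 and Mcpt4 of mast cells fell in WT+MI against WT. In TG+MI against WT+MI, 1 of the 5 tested markers of this list passed as lower and none as higher. None of 4 tested T and NK cell markers passed in these comparisons; none had an unadjusted p below 0.05, and their sums lay between 0.67 and 1.23 in all groups.

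Tissue markers were checked against the label of heart. The summed signal of 7 cardiomyocyte markers was 10.8 to 11.6 over all 12 arrays, and all were above background on every array. In WT+MI against WT, 3 of them fell (Pln, Ryr2 and Tnni3). Of 5 endothelial markers 2 fell (Kdr and Tie1), and of 6 fibroblast markers 2 fell (Dpt and Tcf21). Over all genes tested 29.3% fell in the same comparison, so these few falls are near that share. In TG+MI against WT+MI none of these lists held a gene that passed. Adipocyte marker sums were 2.76 to 6.93 on the TG arrays and -0.83 to 2.23 elsewhere.

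**Figure D4:**
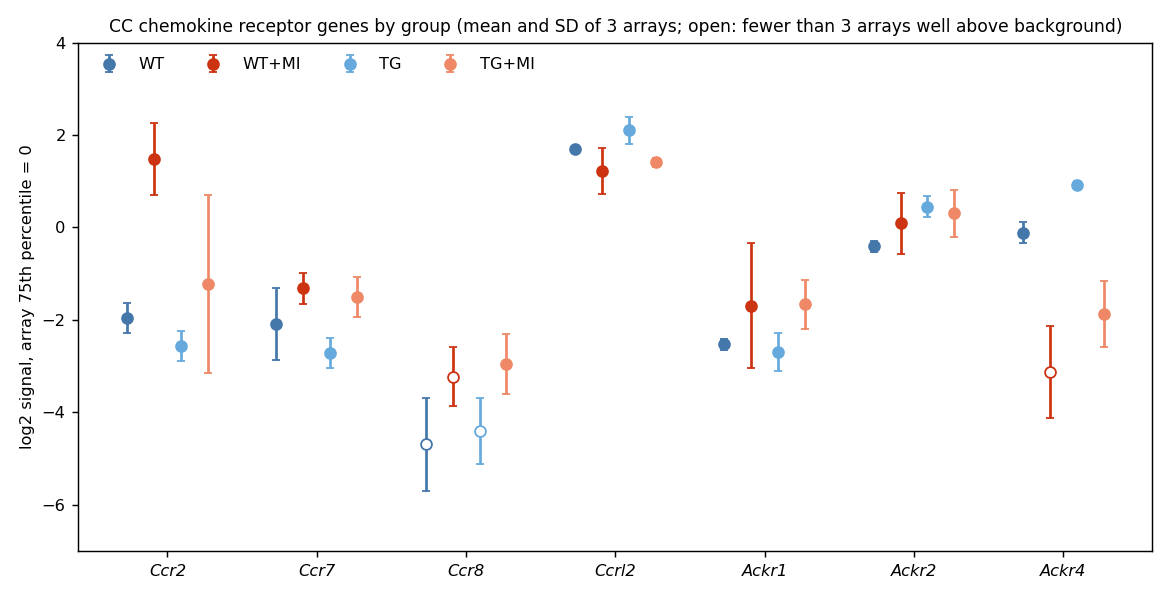
Log2 signal (vertical axis, with the 75th percentile of each array at 0) of 7 CC chemokine receptor genes, by group, as the mean and SD of 3 arrays; open symbols mark groups with fewer than 3 arrays well above background. Ccr2 stands at 1.48 in WT+MI and between -2.57 and -1.22 in the other groups, and Ackr4 is low in both infarcted groups.

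Of 14 CC chemokine receptor genes counted, 7 were tested, and Ccr1, Ccr1l1, Ccr3, Ccr4, Ccr6, Ccr9 and Ccr10 did not pass the filter on dim probes. Ccr1 and Ccr3 were below background on all 12 arrays. The receptors of Ccl6 and Ccl9 (Ccr1), Ccl24 (Ccr3) and Ccl17 (Ccr4) are therefore without a test. In WT+MI against WT, Ccr2 and Ccr8 rose and Ackr4 fell, where 18.6% of all genes rose and 29.3% fell. Ccr2, the receptor of Ccl2, Ccl7 and Ccl12, read -2.18 to -1.58 on the WT arrays and 0.60, 1.76 and 2.09 on the WT+MI arrays, ordered by size, a rise of 3.44 ± 0.76 (10.9-fold, adjusted p = 0.00440). It read -2.82 to -2.19 on the TG arrays and -3.41, -0.41 and 0.16 on the TG+MI arrays, a wide spread around a mean of -1.22 ± 1.92 SD, and was lower than in WT+MI by -2.70 ± 0.76 (adjusted p = 0.0458). With slide as a fixed block no gene passed between those infarcted groups. Ccr8, the receptor of mouse Ccl8, was below background on all WT arrays and above it on 2 of 3 WT+MI arrays, at least 1.48-fold higher (adjusted p = 0.0496). Ackr4, a scavenger of Ccl19, Ccl21 and Ccl25, fell by 3.02 ± 0.45 in wild-type hearts, with 2 of 3 WT+MI arrays above background (adjusted p = 0.00065), and by 2.79 ± 0.45 in transgenic hearts (adjusted p = 0.00609). Ackr2, the scavenger of inflammatory CC chemokines (0.51 ± 0.32), Ackr1 of venular endothelium (0.84 ± 0.54), Ccr7 (0.78 ± 0.37) and Ccrl2 (-0.48 ± 0.22) did not pass in WT+MI against WT, nor in any other comparison.

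The other CC chemokine genes did not follow the 10. Of 14 listed, 11 were on the array and 6 were tested: none rose in WT+MI against WT, and Ccl21a and Ccl27a fell, where 18.6% of all genes rose and 29.3% fell. Ccl21a, a lymphatic Ccr7 ligand with near-identical copies that its probe may not separate, read 1.98 to 2.53 on the WT arrays and -0.95 to 1.38 on the WT+MI arrays, a fall of 2.18 ± 0.50 (-2.18, adjusted p = 0.00526). Ccl27a read 1.86 to 2.04 in WT, 0.91 to 1.24 in WT+MI, 1.96 to 2.02 in TG and 1.58 to 1.68 in TG+MI. It fell by 0.93 ± 0.11 in wild-type hearts (-0.93, adjusted p = 0.000234) and was higher in TG+MI than in WT+MI by 0.61 ± 0.11 (adjusted p = 0.0242), the opposite direction to the 10 genes. That genotype call, too, stands in a comparison where no gene passed with slide as a fixed block. Ccl5, a T cell and monocyte attractant, read -0.73 to 0.21 in WT and -0.66 to 0.11 in WT+MI. Ccl11 (-0.50 ± 0.45), Ccl19 (-0.23 ± 0.57) and Ccl25 (-0.28 ± 0.17) did not pass in WT+MI against WT, and Ccl1, Ccl20, Ccl22, Ccl26 and Ccl28 did not pass the filter. Ccl22 shares the receptor Ccr4 with Ccl17 and was below background on all 12 arrays.

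Of 17 tested genes that induce or brake chemokine transcripts, 12 rose and 1 fell (Irf1) in WT+MI against WT, where 18.6% of all genes rose and 29.3% fell. Il1b, a cytokine that induces Ccl2 and other chemokines, was above background on 1 WT array, with values of -4.16 to -3.30, and read 2.27 to 4.06 on the WT+MI arrays, a rise of 6.98 ± 0.54 (adjusted p = 3.91e-05). It was lower in TG+MI, at -0.70 to 1.21, by -3.03 ± 0.54 (adjusted p = 0.0242). Il6 was at least 50.4-fold higher in WT+MI than in WT, where no array was above background (adjusted p = 0.000276), and differed by -0.57 ± 0.82 between TG+MI and WT+MI (adjusted p = 0.661). The receptor genes Il1r1 (1.17 ± 0.18), Tnfrsf1a (1.24 ± 0.15), Tlr2 (1.74 ± 0.31) and Tlr4 (0.66 ± 0.13) rose in wild-type hearts, at adjusted p from 0.000269 to 0.00217. In TG+MI against WT+MI 3 of the 17 fell and none rose: Il1b, Tlr2 (-1.42 ± 0.31, adjusted p = 0.0290) and Myd88, the adaptor of Toll-like and interleukin 1 receptors (-0.56 ± 0.15, adjusted p = 0.0390), the last named after its value was seen. Of all genes, 4.38% fell in that comparison, and none passed there with slide as a fixed block.

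Ccl17 and Ccl24 are induced by interleukins 4 and 13 in macrophages. Il4 and Il13 themselves were below background on all 12 arrays. Of 7 tested genes of this axis, 5 rose (Arg1, Il13ra1, Il33, Il4ra and Stat6) and 1 fell (Retnla) in WT+MI against WT, where 18.6% of all genes rose and 29.3% fell. The receptor chain Il4ra read -0.84 to -0.54 in WT and 1.38 to 2.55 in WT+MI, a rise of 2.64 ± 0.31 (adjusted p = 0.000239), and rose by 1.97 ± 0.31 in transgenic hearts (adjusted p = 0.00525). Il13ra1 rose by 0.69 ± 0.15 (adjusted p = 0.00439) and Il33, an alarmin that activates type 2 responses, by 1.91 ± 0.39 (adjusted p = 0.00316) in wild-type hearts. In TG+MI against WT+MI, 1 of the 7 passed, Arg1, at -4.20 ± 1.15 (adjusted p = 0.0431), named after its value was seen. Arg1 met the filter on dim probes only through WT+MI, where it read 2.42 to 4.15. On the TG+MI arrays it read -4.37 to 1.66 (SD 3.05), with 2 of 3 arrays above background. Of all genes, 4.38% passed there as lower, and none passed with slide as a fixed block.

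Likeness of pattern was measured as the root-mean-square difference between the 12 centred log2 values of a gene and those of a reference gene. Closest to Ccl2, whose own SD over the arrays was 2.47, was its neighbour Ccl7 at 0.29, followed by Slfn4 at 0.48, Adam8 at 0.57, Hmox1 at 0.58 and Krt86 at 0.59. Hmox1 encodes heme oxygenase 1 and read -0.63 to 0.25 in WT, 5.08 to 5.27 in WT+MI, -0.25 to 0.39 in TG and 3.16 to 3.38 in TG+MI, with less spread among the infarcted hearts than Ccl2. Slfn4 and Krt86 were below background on all uninfarcted hearts. Among the 5 genes closest to Ccl24, whose SD was 0.97, were Sqle, Rhoh and Irf5 at 0.32 and Arhgap30 at 0.33, of which Irf5 encodes an interferon regulatory factor of macrophages, and Sqle serves cholesterol synthesis. No member was among the 5 closest to Ccl24.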

How the data were processed

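Per the labels, total RNA was amplified and labelled with a Low Input Quick Amp kit. Background-subtracted Cy3 intensity from Agilent Feature Extraction 12.0.3.1, per the file headers, was deposited without normalization between arrays. The authors' value table was deposited on a log2 scale with column medians of 4.21 to 4.22; its direction is that of the intensity, and its normalization is not stated. limma is named, with no version, in the submitters' processing notes.

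Intensity was taken to log2, spots of a probe were averaged without outlier spots, and each array's 75th percentile was subtracted. Each gene was represented by its brightest probe, and 19761 of 36981 genes were tested: in 1 group or more, all 3 arrays had to be well above background. Groups were compared in limma 3.58.1 (R 4.3.3, with statmod 1.5.0 and data.table version 1.17.8) in 1 model over 12 arrays. P-values were adjusted by Benjamini-Hochberg over all tested genes, with a threshold of 0.05, and the interaction is the difference between the infarction responses. The fit was tested on simulated data. A fold called "at least" sets the detected group against the faintest detected signals of the other group's arrays, or against the gene's own measured signal where that is higher. A summed signal is log2 of the sum of the scaled signals of all listed genes on the array. Probe positions are mm9 and promoters GRCm38.p6, and the builds were not joined. Named genes were all members, tested receptors and other CC chemokines, ligand and receptor genes of the inducer and interleukin 4 lists that passed, and the 5 genes most like Ccl2 and Ccl24. A few genes of the lists and of the likeness ranking are not reported here, and lists were counted without them. The members and lists were chosen with earlier results of these data known. Replicate numbers did not pair the samples. Alternatives in scaling, filter, slide, replicate block and arrays left out were run, and 2 (an intensity trend and the percentile over spots) were added after seeing the data.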

Additional observations from a re-analysis of the deposited data

Results flagged for a closer look

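By limma's test of the interaction, the infarction response differed by genotype for 7 tested genes on the chemokine, receptor, inducer and interleukin 4 lists. They were 2 of 10 members, 1 of 6 other CC chemokines and 4 of 17 inducers and brakes, with none of 7 receptors and none of 7 interleukin 4 genes. Among the members these were Ccl6 (-3.16 ± 0.69, adjusted p = 0.0362) and Ccl9 (-2.69 ± 0.64, adjusted p = 0.0394). Ccl27a, which fell after infarction in wild-type hearts, gave 0.58 ± 0.15 (adjusted p = 0.0461). The cytokine gene Il1b gave -2.79 ± 0.77 (adjusted p = 0.0491). The NF-kappaB inhibitor gene Nfkbia gave -1.95 ± 0.51 (adjusted p = 0.0452), and Zfp36, which encodes a protein that speeds the decay of cytokine and chemokine transcripts, gave -2.39 ± 0.54 (adjusted p = 0.0370). Zfp36 was higher in TG than in WT by 2.37 ± 0.38 (adjusted p = 0.0122). The interferon regulatory factor gene Irf1 gave 0.76 ± 0.18 (adjusted p = 0.0390). Group means of Irf1 were 3.29 in WT, 2.55 in TG, 2.92 in WT+MI and 2.93 in TG+MI. Those of Nfkbia were 3.38 in WT, 4.79 in TG, 5 in WT+MI and 4.47 in TG+MI. The TG values, from the arrays with atrial, adipocyte and fibroblast signal, thus enter the interactions of Nfkbia, Zfp36 and Irf1. These genes were named after their values were seen, and 8.9% of all genes passed this test in either direction. With slide as a fixed block 3 of all genes passed it, and Ccl6 and Ccl9 did not (adjusted p = 0.197 and 0.221). The other genes named here were not followed under that fit.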

How the results depend on the processing

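The 9 members called in WT+MI against WT stayed within 6 to 9 in all alternatives, the 6 where only genes well above background on all 12 arrays were kept, which leaves Ccl3, Ccl4 and Ccl17 out. In TG against WT, 3 members were called when only those groups were fitted. In TG+MI against WT+MI, 0 were called without the filter on dim probes, with slide as a fixed block and with only those groups fitted (7, 1 and 7 at an unadjusted p below 0.05, against 33.5%, 7.43% and 24.2% of all genes), and 0 to 6 leaving out an array. In TG+MI against TG, 3 were called among genes above background on all arrays, 0 within slide 2 and 5 to 6 leaving out an array. For the interaction, 0 were called without the filter and with the slide block (2 each at an unadjusted p below 0.05, against 30.1% and 16.3% of all genes) and 0 to 2 leaving out an array. Fitting the replicate number as a block called 9, 0, 4, 5 and 2 members, as without it; the numbers do not pair the samples (correlation of deviations -0.26 to 0.12, and 2 of 12 arrays closest to their own number).

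Over all genes, TG against WT called 518, and 205 without the filter, 320 with the slide block, 342 with the replicate block, 904 with only those groups and 137 to 866 leaving out an array. TG+MI against WT+MI called 2405, and 14 without the filter, 0 with the fixed slide block, 4233 with the random one, 0 with only those groups and 0 to 3524 leaving out an array. TG+MI against TG called 1749, and 955 without the filter, 119 with the slide block, 0 within slide 2, 690 with only those groups and 690 to 2286 leaving out an array. The interaction called 1758, and 55 without the filter, 3 with the slide block, 1156 with the replicate block and 58 to 2691 leaving out an array.

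Signs turned only for values that were not called. Ccl3 in TG against WT was 0.02 with normexp (and -0.81 to 0.19 leaving out an array), Ccl8 0.11 (-0.35 to 0.42). With the slide block and within slide 2, Ccl8 in TG+MI against TG was -0.23 (-0.05 to 0.73 leaving out an array). Ccl12 was 0.21 with the slide block both in TG+MI against WT+MI (-0.43 to 0.02 leaving out an array) and in the interaction (-0.29 to 0.15). Signs also turned when an array was left out for Ccl7 in the interaction (-0.83 to 0.08), Ccl8 in TG+MI against WT+MI (-0.44 to 0.21) and in the interaction (-0.64 to 0.25), and Ccl17 in TG against WT (-0.87 to 0.25). Of single-gene values under all alternatives, 1137 kept direction and side of the threshold, 76 lost the call, 15 gained it and 27 turned sign. The cause of these changes was not tested.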
